A study of Mus musculus with 8 samples.

Results

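A set of 10 genes of the retinal vascular endothelium and of the blood-retina barrier were followed through RNA sequencing of mouse retina. They were picked by gene name and all 10 were found among the 54532 genes of the deposited tables. The libraries came from retina and formed 2 groups of 4. The vesicle group is labelled sIVs, read here as the small intracellular vesicles of the series title, and the control group is labelled PBS. Replicates are numbered 1, 3, 4 and 5 in both groups. The labels used here give no dose, route, time, strain, age or injury model. They number the samples of a group as separate biosamples without saying that these are separate animals, and the p-values below therefore reflect sample-to-sample spread that may be purely technical. Depth was 13803958 to 16622259 counts per library and did not differ between the groups beyond its spread (two-sided exact permutation p = 0.371 over 70 arrangements, where the smallest possible p is 0.0286).

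The capillaries of the inner retina are lined by endothelial cells that seal the tissue from the blood. Tight junctions close the gaps between the cells, few vesicles cross them, and transporters select what enters. Vascular endothelial growth factor (VEGF) and the angiopoietins act through receptor tyrosine kinases on these cells, and Norrin and Wnt signals maintain their barrier. The 10 genes cover these roles. Cldn5, Pecam1 and Cdh5 encode proteins of cell contacts. Kdr and Flt1 encode VEGF receptors, and Tek and Tie1 encode the receptors of the angiopoietin system. Mfsd2a and Slco1a4 encode transporters, and Vwf encodes a clotting protein that endothelial cells store and secrete.

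The presence of endothelial transcripts was checked with 30 further endothelial genes. Of these, 28 had enough counts to be tested, Myct1 did not, and Gpihbp1 had no count in any library. Per length, Podxl, which kidney podocytes and other epithelia also make, averaged 32.2 FPKM over the 8 libraries. FPKM are counts scaled by gene length and library total. Ly6c1 followed at 8.82 FPKM and Esam at 6.49 FPKM. Endothelium is a small part of the retina, and in bulk tissue fewer cells of a type and less RNA per cell cannot be told apart.

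Between sIVs and PBS retinas none of the 10 genes passed the test. All 10 had enough counts to be tested, and 0 were called at an edgeR adjusted p of 0.05 (quasi-likelihood F test, 17004 genes), against 0% of all genes tested. Adjusted p ran from 0.81 to 0.973 over the 10 genes. At an unadjusted p under 0.05, 0 of the 10 genes were reached, against 1.50% of all genes tested (255 genes). The groups overlapped for all 10 genes, whereas 2.01% of all genes tested had groups without overlap. The log2 fold change was above 0 for 6 genes and below 0 for 4, with a median of 0.07 against 0.01 for all genes tested.

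The genes differed widely in level. By mean FPKM over the 8 libraries, Kdr was first at 41.6, followed by Cldn5 at 19.4, Flt1 at 8.26 and Slco1a4 at 3.11. Mfsd2a averaged 2.23, Pecam1 1.90, Cdh5 1.70, Tek 1.58, Tie1 1.02 and Vwf 0.739 FPKM. This order rests on the listed gene lengths, of which that of Vwf is the longest at 16064 bases. In this order Cldn5 and Flt1, and likewise Flt1 and Slco1a4, had ranges that did not overlap. The ranges of every other pair of neighbours overlapped, and Cdh5 was above Tek in 5 of 8 libraries. Per length, Kdr stood between 13.3 and 31.3 times the level of Pecam1 in the same library, whereas Cdh5 stood between 0.734 and 1.13 times that level. Kdr has also been described in neurons of the mouse retina, and these bulk counts do not separate cell types.

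**Figure D1:**
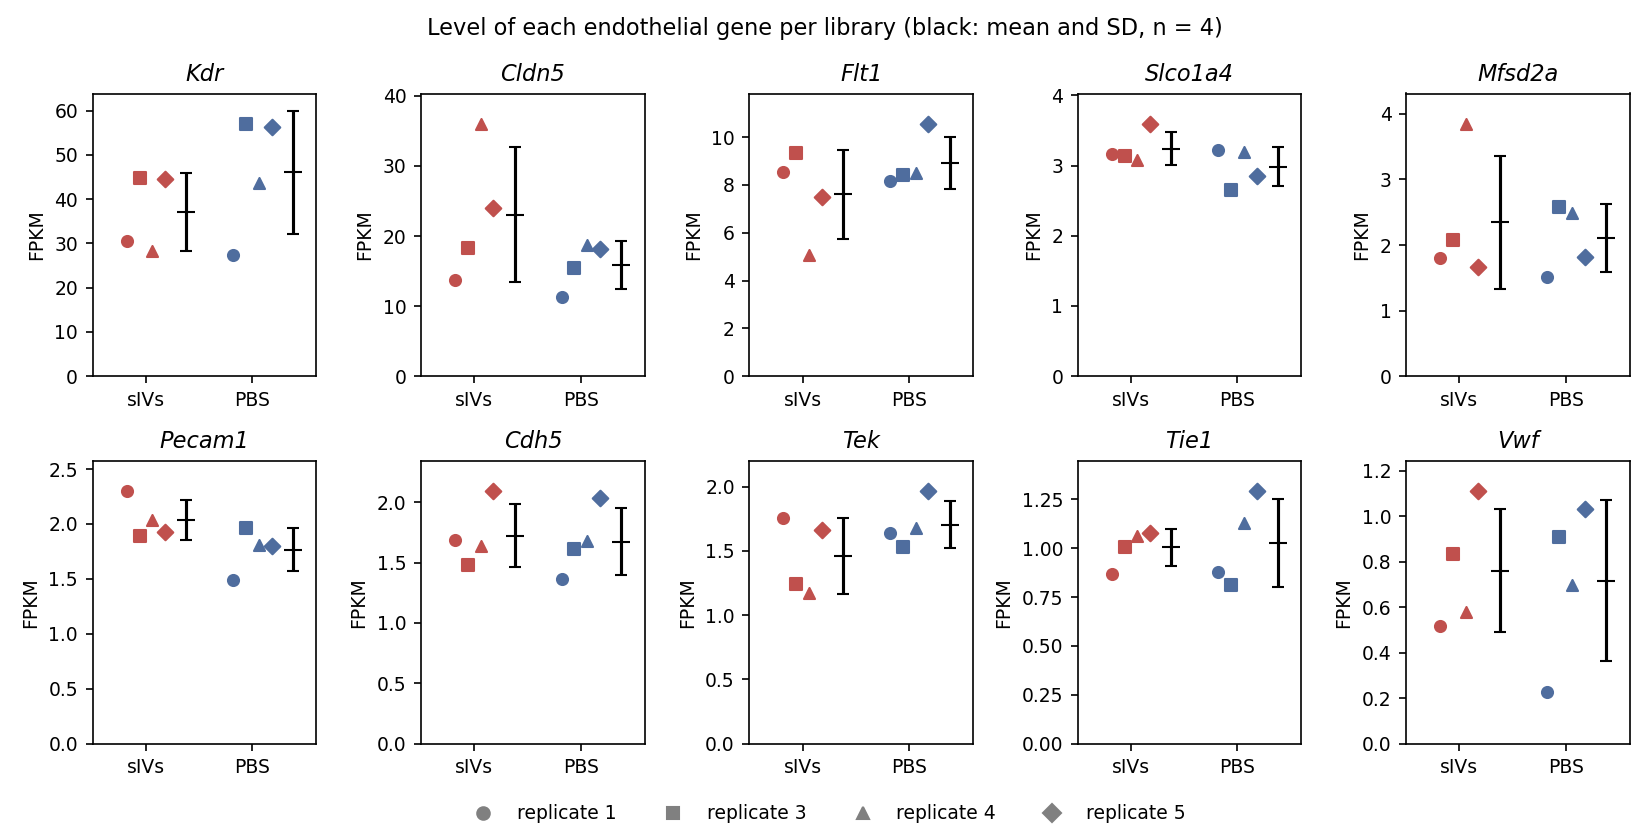
Each panel plots FPKM of one gene on a linear axis from 0, with the sIVs libraries at the left and the PBS libraries at the right, a marker for each replicate number, and the mean with SD (n = 4) in black. Kdr is highest on average, between 27.4 and 57.0 FPKM, and Vwf is lowest on average, between 0.227 and 1.11 FPKM, and the groups overlap in every panel.

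The sequences upstream of the 3 genes of highest level per length are given here, since these genes set the scale for the rest. Each shows the 250 bases before the RefSeq transcription start (GRCm38.p6), 5′ to 3′ on the strand of the gene. Cldn5 lies at chr16:18776597-18776846 (plus strand), Kdr at chr5:75978456-75978705 (minus strand) and Flt1 at chr5:147726012-147726261 (minus strand). Capitals mark GGAAG or its reverse complement CTTCC, which contain the core bound by ETS transcription factors, a family with many known endothelial target genes.
Cldn5: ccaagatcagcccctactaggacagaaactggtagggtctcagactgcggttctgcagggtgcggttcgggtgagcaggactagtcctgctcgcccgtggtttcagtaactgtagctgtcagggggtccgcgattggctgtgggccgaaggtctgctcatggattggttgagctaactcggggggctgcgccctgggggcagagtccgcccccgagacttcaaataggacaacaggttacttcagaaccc
Kdr: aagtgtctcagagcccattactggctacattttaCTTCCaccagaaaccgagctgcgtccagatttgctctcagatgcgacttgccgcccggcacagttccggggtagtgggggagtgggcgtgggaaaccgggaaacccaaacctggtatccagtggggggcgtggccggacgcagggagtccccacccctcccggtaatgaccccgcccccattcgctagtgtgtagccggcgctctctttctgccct
Flt1: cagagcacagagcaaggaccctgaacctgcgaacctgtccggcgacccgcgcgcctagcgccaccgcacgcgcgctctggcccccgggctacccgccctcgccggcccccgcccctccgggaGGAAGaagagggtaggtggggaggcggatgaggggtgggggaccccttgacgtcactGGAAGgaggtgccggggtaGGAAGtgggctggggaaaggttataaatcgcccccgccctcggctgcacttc
The motif occurred 3 times in the Flt1 stretch, 1 time in that of Kdr and 0 times in that of Cldn5. RefSeq starts were found for 7 of the 10 genes, and 4 of these 7 held the motif on either strand. It was present in 64.1% of the 32851 stretches of the same length in the promoter table. Pecam1, Cdh5 and Vwf had no entry.

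Cldn5 (chr16:18776847-18778262, plus strand, mm10), the main claudin of endothelial tight junctions, had the largest positive difference of the 10 genes. It stood at 19.9, 26.3, 52.5 and 34.9 CPM (counts relative to the scaled library size) in sIVs replicates 1, 3, 4 and 5. In PBS replicates 1, 3, 4 and 5 it stood at 16.2, 22.3, 26.9 and 26.0 CPM. The value of sIVs replicate 4 was high and that of PBS replicate 1 low, and 2 of the 4 sIVs libraries lay above every PBS library. The means were 33.4 ± 14.1 CPM in sIVs and 22.9 ± 4.88 CPM in PBS retinas (SD, n = 4 each). The log2 fold change was 0.55 ± 0.29 (SE; 95% interval -0.11 to 1.20; edgeR adjusted p = 0.81), so that folds from 0.929 to 2.30 lay within the interval. Leaving out sIVs replicate 4 gave 0.24, and leaving out both that library and PBS replicate 1 gave 0.11. Leaving out sIVs replicate 1 gave 0.72 (unadjusted p = 0.0219, edgeR adjusted p = 0.577), and leaving out sIVs replicate 3 gave 0.64.

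The other genes of cell contacts varied less. Pecam1 (chr11:106654217-106750628, minus strand), an adhesion molecule between endothelial cells that platelets and leukocytes also carry, stood at 14.6, 12.0, 13.0 and 12.3 CPM in sIVs replicates 1, 3, 4 and 5. It stood at 9.45, 12.4, 11.5 and 11.4 CPM in PBS replicates 1, 3, 4 and 5. The sIVs values were higher on average, but sIVs replicates 3 and 5 lay below PBS replicate 3 (log2 fold change 0.21 ± 0.14 SE, edgeR adjusted p = 0.81). Cdh5 (chr8:104101625-104144511, plus strand) encodes VE-cadherin, the cadherin of endothelial adherens junctions. It stood at 7.24, 6.32, 7.07 and 9.01 CPM in sIVs and at 5.82, 6.89, 7.19 and 8.67 CPM in PBS replicates 1, 3, 4 and 5, and the 2 groups spanned nearly the same range (log2 fold change 0.05 ± 0.19 SE, edgeR adjusted p = 0.933). Cdh5 overlaps the antisense gene Gm29682, which had at most 3 counts in any library.

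Of the VEGF receptor genes, Kdr had the most negative difference of the 10. At chr5:75932827-75978458 on the minus strand, it encodes VEGFR2, the receptor that carries most VEGF signalling in endothelium. Its levels were 281, 412, 263 and 413 CPM in sIVs replicates 1, 3, 4 and 5, against 252, 524, 401 and 515 CPM in PBS replicates 1, 3, 4 and 5. The lowest value of all was in PBS replicate 1 and the next lowest in sIVs replicate 4, so both groups held low and high libraries. The log2 fold change was -0.31 ± 0.25 (SE; 95% interval -0.87 to 0.26; edgeR adjusted p = 0.81). Without PBS replicate 1 it was -0.49, with an unadjusted p of 0.0417 and an edgeR adjusted p of 0.89, and it was -0.20, -0.19 and -0.20 without sIVs replicate 4, PBS replicate 3 and PBS replicate 5.

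Flt1 (chr5:147561604-147726011, minus strand) encodes VEGFR1, which binds VEGF tightly and also exists as a soluble form that the gene counts do not separate. It stood at 118, 129, 70.1 and 104 CPM in sIVs and at 112, 116, 117 and 145 CPM in PBS replicates 1, 3, 4 and 5. The sIVs replicate 4 value was the lowest and the PBS replicate 5 value the highest, while the other 6 libraries lay close together. The log2 fold change was -0.22 ± 0.18 (SE; edgeR adjusted p = 0.81), with -0.07 when sIVs replicate 4, -0.13 when PBS replicate 5 and -0.33 when sIVs replicate 3 was left out.

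The angiopoietin receptor genes had low counts, between 84 and 156 for Tek and between 58 and 107 for Tie1. Tek (chr4:94739289-94874976, plus strand) encodes TIE2, the receptor of the angiopoietins. It stood at 8.46, 5.97, 5.70 and 8.04 CPM in sIVs and at 7.86, 7.35, 8.06 and 9.39 CPM in PBS replicates 1, 3, 4 and 5. Replicates 3 and 4 of the sIVs group lay below every PBS library, and replicates 1 and 5 lay among them (log2 fold change -0.21 ± 0.19 SE, edgeR adjusted p = 0.81). Tie1 (chr4:118471191-118490061, minus strand), a related receptor without a known angiopoietin ligand of its own that modulates TIE2, stood at 4.37, 5.04, 5.37 and 5.43 CPM in sIVs and at 4.38, 4.05, 5.64 and 6.44 CPM in PBS replicates 1, 3, 4 and 5. Its sIVs values all lay inside the PBS range (log2 fold change -0.02 ± 0.21 SE, edgeR adjusted p = 0.973).

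The 2 transporter genes differed in spread. Mfsd2a (chr4:122946850-122961188, minus strand) encodes a lysophosphatidylcholine carrier that brings docosahexaenoic acid across the barrier and limits vesicle transport in brain endothelium; the pigment epithelium also makes it. It stood at 4.16, 4.76, 8.91 and 3.85 CPM in sIVs and at 3.48, 5.90, 5.71 and 4.15 CPM in PBS replicates 1, 3, 4 and 5. Only sIVs replicate 4 lay above the PBS range (log2 fold change 0.17 ± 0.31 SE, edgeR adjusted p = 0.868); leaving that library out gave -0.18. Slco1a4 (chr6:141805440-141856199, minus strand), an organic anion transporter of rodent brain capillaries, stood at 20.8, 20.5, 20.3 and 23.7 CPM in sIVs and at 21.0, 17.4, 20.9 and 18.6 CPM in PBS replicates 1, 3, 4 and 5. The sIVs values of replicates 1, 3 and 4 lay close together (log2 fold change 0.13 ± 0.12 SE, edgeR adjusted p = 0.81), and the 95% interval allowed folds from 0.909 to 1.32.

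Vwf had the widest range of the 10 genes, 4.94-fold between the lowest and the highest library. Its gene lies at chr6:125546774-125686679 on the plus strand. Though lowest by mean FPKM, it was not lowest by CPM, with means of 12.5 in sIVs and 11.7 in PBS retinas. Mfsd2a, Cdh5, Tek and Tie1 averaged at most 8.17 CPM in either group. Von Willebrand factor is stored in endothelial granules and is also made by megakaryocytes. The levels were 8.53, 13.6, 9.56 and 18.3 CPM in sIVs and 3.70, 14.9, 11.4 and 16.9 CPM in PBS replicates 1, 3, 4 and 5. The single low value of PBS replicate 1 set the lower end, and the highest 2 libraries were replicate 5 of either group. The log2 fold change was 0.09 ± 0.42 (SE; edgeR adjusted p = 0.948) and its 95% interval ran from -0.86 to 1.04. Without PBS replicate 1 it was -0.21.

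**Figure D2:**
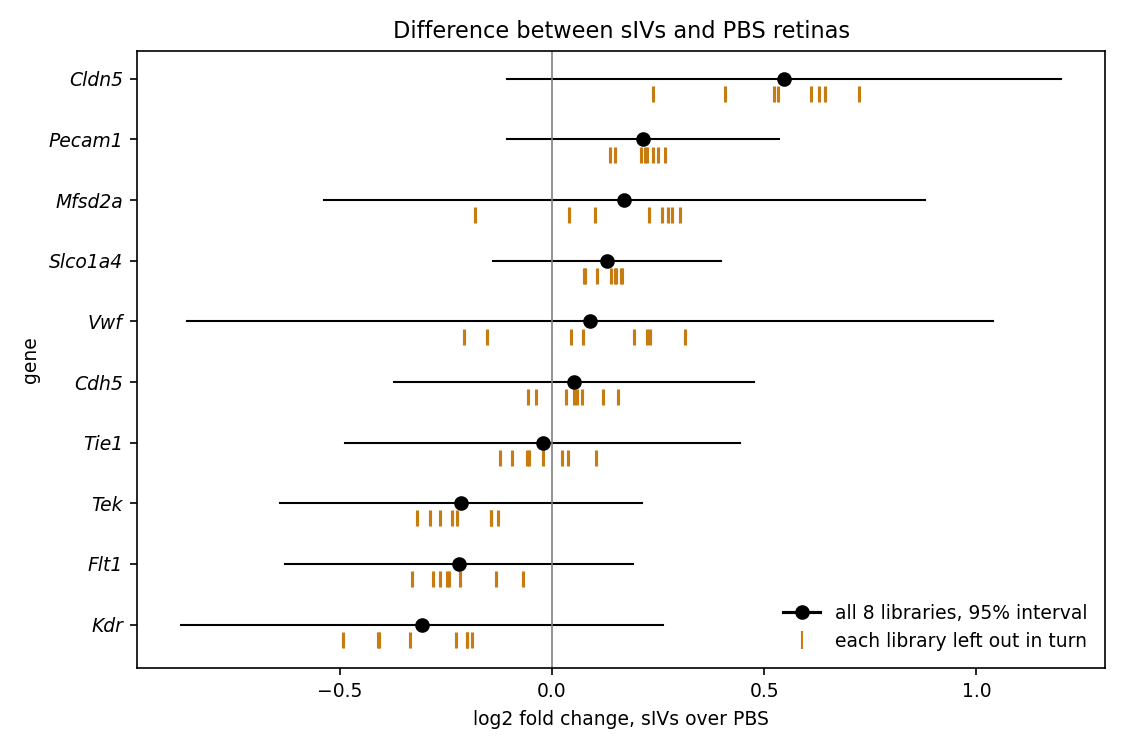
Black points give the log2 fold change of sIVs over PBS with its 95% interval from the edgeR test, 1 gene a row, and orange ticks give the value with each of the 8 libraries left out. Every interval crosses 0, the widest is that of Vwf, and the ticks of Mfsd2a, Vwf, Cdh5 and Tie1 fall on both sides of 0.

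Spread between libraries of a group was set against the spread that counting alone gives at the mean count. For Slco1a4 the coefficient of variation within groups was 8.36%, against 5.74% from counting, and for Pecam1 it was 10.2%, against 7.43%. Tie1, Cdh5 and Tek stood at 1.47, 1.66 and 1.71 times the counting value. Kdr, with the highest counts, stood at 27.1% within groups against 1.31% from counting, a ratio of 20.7. Flt1, Cldn5, Vwf and Mfsd2a stood at 7.92, 6.89, 5.85 and 3.11 times counting noise. The ratio depends on read depth, since counting noise shrinks as counts grow. By the spread itself, Vwf (43.1%), Mfsd2a (35.3%) and Cldn5 (33.5%) were above Kdr, and Flt1 (19.2%), Tie1 (16.8%), Tek (16.0%) and Cdh5 (15.9%) lay close together.

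**Figure D3:**
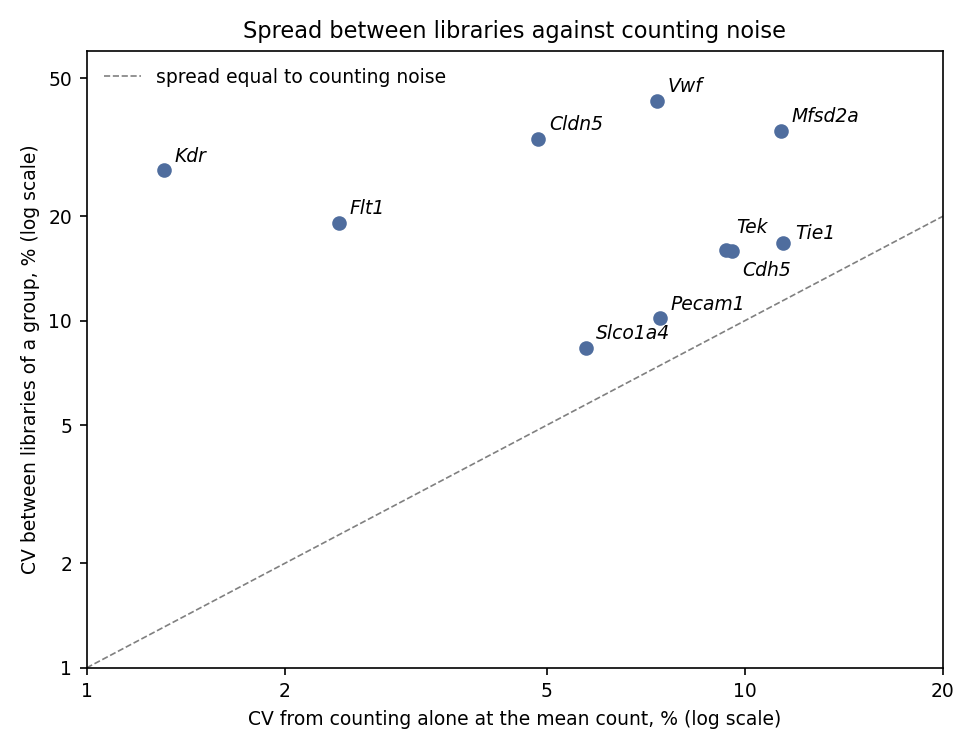
The x axis gives the coefficient of variation expected from counting at the mean count of a gene and the y axis that found between libraries of a group, both in percent on log scales, 1 point a gene. Pecam1, Slco1a4, Tie1, Cdh5 and Tek lie nearest the dashed line of equal values, and Kdr lies farthest above it.

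The 10 genes were not shown to vary as a unit across libraries. Over the 45 pairs of genes, Pearson's r of log2 CPM across the 8 libraries was above 0 for 29 pairs and below 0 for 16, with a median of 0.17. No pair passed after Benjamini-Hochberg adjustment (lowest adjusted p = 0.122, exact permutation test), and 2 pairs had an unadjusted p under 0.05. The highest was Kdr with Vwf (r = 0.82, exact permutation p = 0.0027, adjusted p = 0.122; Spearman's rho = 0.88, exact permutation p = 0.00724, adjusted p = 0.326). Leaving out PBS replicate 1 and sIVs replicate 4, the libraries farthest from the Kdr median, r was 0.81. On deviations from the group means this pair had r = 0.95 (permutation p = 0.000818, adjusted p = 0.0368). That p is not exact, because values centred within each group were permuted across all 8 libraries. The pair is therefore given as a description and not as a pass.

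Cldn5 and Mfsd2a had r = 0.70 (exact permutation p = 0.056, adjusted p = 0.573; rho = 0.45, exact permutation p = 0.267, adjusted p = 0.852), and without the same 2 libraries r was -0.31, so the relation rested on them. Cldn5 and Flt1 had r = -0.69 (exact permutation p = 0.08, adjusted p = 0.573; rho = -0.38, exact permutation p = 0.36, adjusted p = 0.852), with -0.30 without them.

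**Figure D4:**
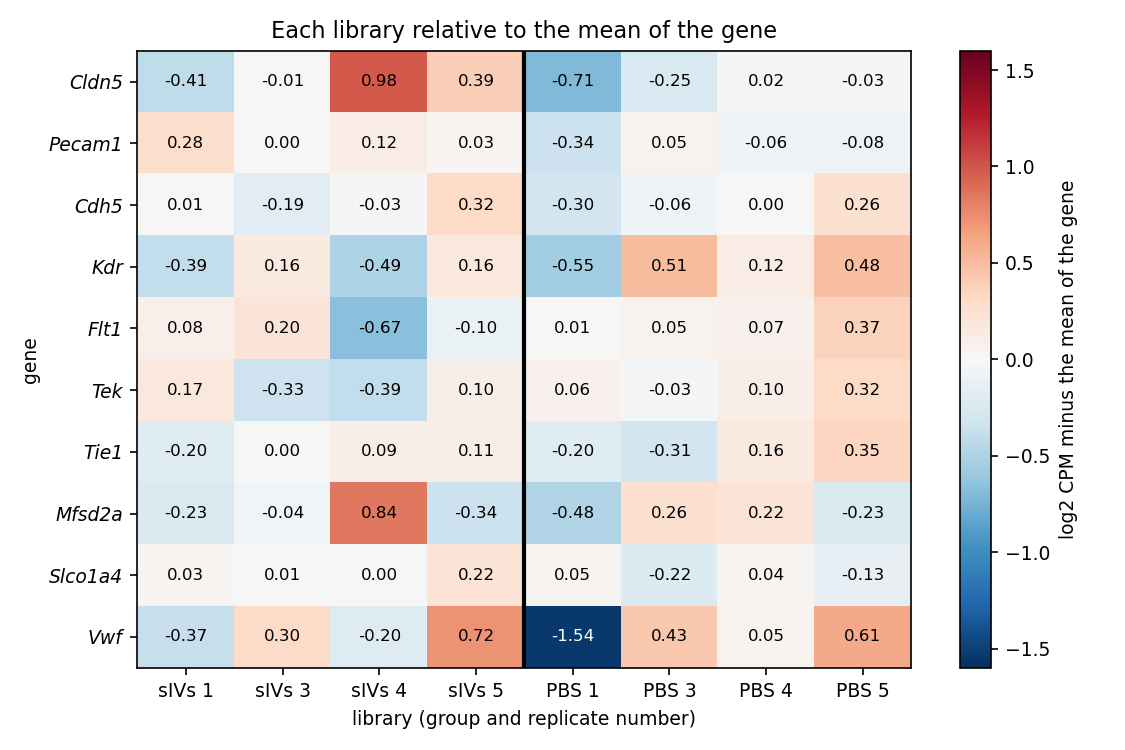
Rows are the 10 genes and columns the 8 libraries, sIVs left of the line and PBS right of it; each cell gives the deviation of log2 CPM from the 8-library mean of that gene. PBS replicate 1 holds the most negative cell, -1.54 for Vwf, and sIVs replicate 4 the most positive, 0.98 for Cldn5.

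The lowest values gathered in one control library. PBS replicate 1 was the lowest of the 8 libraries for 6 of the 10 genes, namely Cldn5, Pecam1, Cdh5, Kdr, Mfsd2a and Vwf, and the highest for 0. It was also lowest for 8 of the 25 further endothelial genes that are protein coding with a mean of at least 1 CPM. Of the same 25, sIVs replicates 1 and 4 were each lowest for 5. The share of all tested genes that were lowest in PBS replicate 1 is not given here, so these counts are not read as a trait of endothelial genes. The summed level of 10 microglia markers in PBS replicate 1 was 60.9 CPM, against 165 to 359 CPM in the sIVs group and 192 to 263 CPM in the other PBS libraries. Leukocyte markers summed to 1.81 CPM there, against 13.7 to 112 CPM in sIVs and 24.1 to 98.9 CPM in the other PBS libraries. Most of the sum in the other libraries was Lyz2, at 11.1 to 101 CPM in sIVs and 20.6 to 89.8 CPM in PBS. In PBS replicate 1 Lyz2 stood at 0.605 CPM. Cd3e and Ly6g had no count in any library, and Cd79a, S100a8 and S100a9 had too few counts to be tested. The leukocyte sums therefore do not describe that list as a whole. Rod markers summed to 56347 CPM in this library, against 34662 to 57439 CPM in the sIVs group, where replicate 1 was highest, and 29727 to 41993 CPM in the other PBS libraries. The part of these markers in the values of the 10 genes was not tested.

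In sIVs replicate 4 short genes stood high and long genes low. Cldn5 (1416 bases) and Mfsd2a (2250 bases) stood 0.98 and 0.84 above their means on the log2 scale, while Kdr (9030 bases) and Flt1 (13504 bases) stood at -0.49 and -0.67. Vwf, the longest at 16064 bases, stood at -0.20. Slco1a4 (6414 bases), Pecam1 (6228 bases) and Tie1 (4917 bases) stood at -0.00054, 0.12 and 0.089. Tek (4712 bases) and Cdh5 (4203 bases) stood at -0.39 and -0.027. Over all 17004 genes tested, split into 4 classes by length, the shortest class, up to 2324 bases, had a median deviation of 0.51 in this library, and the longest class, from 6294 bases, one of -0.41. In the other 7 libraries the medians of these classes lay between -0.11 and 0.11. The same library held the highest summed level of 12 pigment epithelium markers, 459 CPM, against 13.4 to 75.2 CPM in the other sIVs and 12.6 to 69.2 CPM in the PBS libraries. Rpe65, the visual-cycle isomerase gene of that epithelium, stood at 4.01, 0.284, 60.2 and 4.13 CPM in sIVs and at 0.227, 3.88, 0.941 and 3.97 CPM in PBS replicates 1, 3, 4 and 5. Rgr, Ttr, Lrat, Rdh5 and Dct were also highest in sIVs replicate 4, with Rgr at 153 CPM and Ttr at 150 CPM. Tyrp1 and Pmel were not highest there, at 5.57 and 1.90 CPM. Tyrp1 reached 6.46 CPM in sIVs replicate 5 and Pmel 4.21 CPM in PBS replicate 5. Tyr, Mlana, Best1 and Slc45a2 of that list had too few counts to be tested. The part of gene length and of pigment epithelium in these values was not tested.

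**Figure D5:**
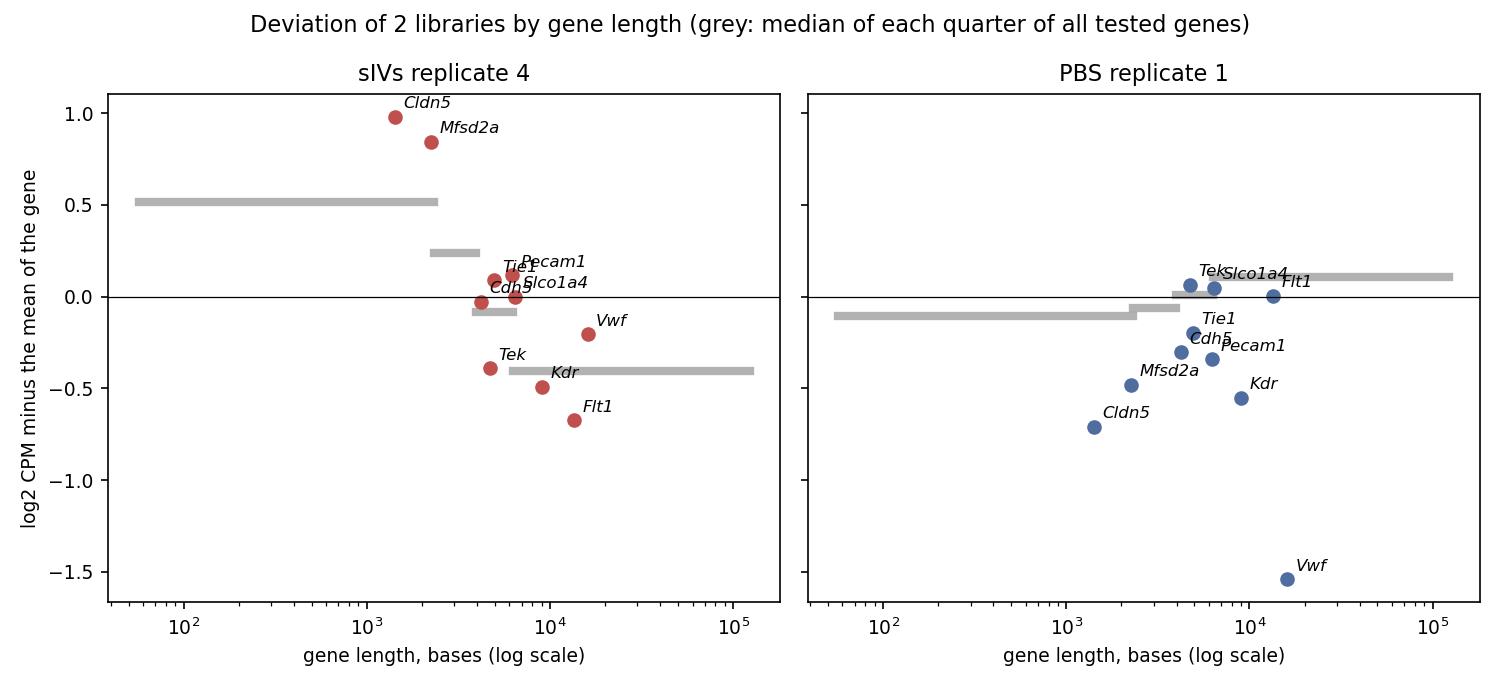
Points give the deviation of log2 CPM from the mean of each of the 10 genes in sIVs replicate 4 (left) and PBS replicate 1 (right) plotted against gene length in bases on a log axis; grey bars give the median of 4 equal classes of all tested genes by length. In sIVs replicate 4 the bars step down, with 0.51 for the shortest class and -0.41 for the longest, while in PBS replicate 1 the bars stay between -0.11 and 0.11.

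Further endothelial genes were read from a list of known markers. Of the 28 tested, 0 passed in either direction; 18 log2 fold changes were above 0 and 10 below, with a median of 0.19 (0.06 without sIVs replicate 4). Sox17, a transcription factor of arterial endothelium, stood at 3.37, 4.69, 6.55 and 4.95 CPM in sIVs and at 2.87, 4.46, 3.36 and 3.13 CPM in PBS replicates 1, 3, 4 and 5, again with sIVs replicate 4 at the top (log2 fold change 0.50 ± 0.25 SE, edgeR adjusted p = 0.81; 0.32 without that library). Emcn, an endothelial sialoglycoprotein gene, averaged 2.54 ± 0.513 CPM in sIVs and 1.85 ± 0.321 CPM in PBS retinas (SD, n = 4 each; log2 fold change 0.46 ± 0.25 SE, edgeR adjusted p = 0.81). Of the 25 of these genes with a mean of at least 1 CPM, 12 were highest and 5 lowest in sIVs replicate 4. The share of all tested genes that were highest or lowest in that library is not given here. These counts are therefore not read as a trait of endothelial genes. The summed level of the 30 genes was lowest in that library, at 332 CPM, against 382 to 410 CPM in the other sIVs and 373 to 403 CPM in the PBS libraries. A large part of this sum was Podxl, which other cells also make. Podxl stood at 97.2 CPM in sIVs replicate 4, against 157 to 230 CPM in the other sIVs and 156 to 214 CPM in the PBS libraries. The low sum is therefore not a low level of the list as a whole.

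Likeness to the 10 genes as a set was measured as Pearson's r with their mean centred log2 CPM over the 8 libraries, given here as a description. Those 25 endothelial genes had a median r of 0.505, against 0.0322 for 13778 protein-coding genes. Of the 25, 21 were above 0, against 7178 of the 13778. Without PBS replicate 1 the median was 0.24 for the 25 endothelial genes and 0.0129 for the 13778. The 8 genes of highest r were C1s1 (r = 0.995, 0.983 without PBS replicate 1), Ccdc194, Cadps2, Cd72, Mpeg1, Tnfrsf1b, Mamdc2 and Selenon, the last with r = 0.980. C1s1 encodes a complement protease and Mpeg1 a pore-forming protein of macrophages. Mpeg1 stood at 11.6, 23.4, 21.9 and 47.9 CPM in sIVs and at 3.40, 30.8, 21.1 and 43.0 CPM in PBS replicates 1, 3, 4 and 5. Replicate 1 was lowest and replicate 5 highest in both groups.

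Genes that build or regulate the barrier around the 10 genes were read from lists of their own. Of 17 tight and adherens junction genes 0 passed, with 6 values above 0, 11 below and a median of -0.08. Ctnnd1, which encodes the cadherin-binding p120 catenin, averaged 18.0 ± 5.81 CPM in sIVs and 13.9 ± 2.49 CPM in PBS retinas, and the cadherin gene Cdh2 averaged 128 ± 21.7 and 150.0 ± 35.6 CPM in sIVs and PBS (SD, n = 4 each). Their log2 fold changes were 0.37 ± 0.24 and -0.23 ± 0.19 (SE), with 0.14 and -0.13 without sIVs replicate 4 and 0.25 and -0.38 without PBS replicate 1. Of 17 barrier transporter genes 0 passed, with 10 positive and 7 negative values and a median of 0.03. The membrane protein gene Itm2a had a log2 fold change of 0.48 ± 0.28 and the monocarboxylate transporter gene Slc16a1, which photoreceptors and pigment epithelium also use, one of 0.24 ± 0.14 (SE), with 0.29 and 0.14 without sIVs replicate 4.

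Of 8 genes of caveolae and fenestrae 0 passed, with 6 positive and 2 negative values and a median of 0.05. Plvap, the diaphragm protein of fenestrated vessels such as those of the choroid, stood at 7.81, 11.2, 19.3 and 9.28 CPM in sIVs and at 9.52, 9.55, 8.73 and 11.7 CPM in PBS replicates 1, 3, 4 and 5. It was thus highest in sIVs replicate 4, and without that library its log2 fold change was -0.07, against 0.27 ± 0.27 (SE) with it. Cavin3, a caveolar coat gene, had a log2 fold change of 0.55 ± 0.35 (SE), with 0.13 without the same library.

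VEGF ligands and receptors other than Kdr and Flt1 gave 0 passes among 10 genes, with 4 positive and 6 negative values and a median of -0.11. Flt4 encodes VEGFR3, the VEGF receptor of lymphatic and sprouting endothelium. It stood at 4.16, 5.82, 3.80 and 4.47 CPM in sIVs and at 6.73, 5.61, 8.06 and 6.14 CPM in PBS replicates 1, 3, 4 and 5, where only sIVs replicate 3 reached into the PBS range (log2 fold change -0.54 ± 0.21 SE, unadjusted p = 0.0274, edgeR adjusted p = 0.81). Nrp2, a co-receptor for VEGF and semaphorins, averaged 23.6 ± 6.36 CPM in sIVs and 31.3 ± 3.18 CPM in PBS retinas (SD, n = 4 each; log2 fold change -0.41 ± 0.20 SE, edgeR adjusted p = 0.81; -0.23 without sIVs replicate 4). Of 11 genes of the hypoxia response 0 passed, with a median of 0.05. They include Hif1a, Epas1 and Arnt, which encode hypoxia-inducible factor itself. Ndrg1 and Pdk1 had log2 fold changes of 0.18 ± 0.11 and -0.29 ± 0.19 (SE), the second with -0.13 without sIVs replicate 4.

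Of 7 genes around the angiopoietin receptors 0 passed, with 2 positive and 5 negative values and a median of -0.12. Angpt2 encodes the angiopoietin that mostly antagonises TIE2 and loosens vessels. It stood at 3.58, 3.55, 3.60 and 3.51 CPM in sIVs and at 5.44, 4.11, 4.23 and 5.36 CPM in PBS replicates 1, 3, 4 and 5. The groups did not overlap (log2 fold change -0.42 ± 0.19 SE, unadjusted p = 0.0481, edgeR adjusted p = 0.81), and the value was -0.43 without sIVs replicate 4. Svep1, a matrix protein gene, had a log2 fold change of -0.70 ± 0.42 (SE), with -0.44 without that library.

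Norrin and Wnt genes, Notch and tip cell genes and genes of arteries and veins also gave 0 passes, among 13, 11 and 9 tested, with medians of -0.05, 0.01 and -0.02. The Wnt co-receptor gene Lrp6 and its negative regulator gene Znrf3 had log2 fold changes of -0.28 ± 0.19 and -0.34 ± 0.20 (SE), with -0.12 and -0.19 without sIVs replicate 4. Hey1, a Notch target gene, and Notch1 had 0.28 ± 0.18 and -0.40 ± 0.38 (SE), with 0.07 and -0.10 without sIVs replicate 4. Mgp, an inhibitor of calcification and of bone morphogenetic proteins, stood at 5.09, 9.02, 20.2 and 10.9 CPM in sIVs and at 4.54, 6.54, 5.11 and 7.04 CPM in PBS replicates 1, 3, 4 and 5. Its highest value was again in sIVs replicate 4 (log2 fold change 0.96 ± 0.38 SE, unadjusted p = 0.0306, edgeR adjusted p = 0.81), and without it the value was 0.52.

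Genes of haemostasis and vessel tone gave 0 passes among 12 and a median of 0.19, where F8 and Ace had log2 fold changes of -0.46 ± 0.33 and 0.21 ± 0.19 (SE), and F8 had -0.21 without sIVs replicate 4. Of 6 genes of activated endothelium 0 passed, with a median of 0.14, and the selectin genes Sele and Selp had no count in any library. Angptl4, a lipase inhibitor gene induced by fasting and low oxygen, stood at 1.50, 2.06, 4.13 and 2.54 CPM in sIVs and at 0.68, 1.27, 0.672 and 1.56 CPM in PBS replicates 1, 3, 4 and 5. All but sIVs replicate 1 lay above the PBS range (log2 fold change 1.27 ± 0.41 SE, unadjusted p = 0.0122, edgeR adjusted p = 0.81), with 0.94 without sIVs replicate 4. Ctgf, a matricellular protein gene, had a log2 fold change of 0.29 ± 0.25 (SE), with 0.15 without the same library.

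Of 9 lipid transport genes listed beside Mfsd2a 0 passed, with 8 positive values and 1 negative and a median of 0.19. Fabp7, a fatty acid binding protein gene of glia, stood at 1.86, 1.35, 1.64 and 1.79 CPM in sIVs and at 0.68, 0.984, 1.08 and 1.20 CPM in PBS replicates 1, 3, 4 and 5, without overlap (log2 fold change 0.74 ± 0.27 SE, unadjusted p = 0.0231, edgeR adjusted p = 0.81). Fabp3, the heart-type family member, had 0.48 ± 0.28 (SE), with 0.11 without sIVs replicate 4. Over all 220 tested genes of the 23 lists beside the 10 genes, 0 passed, 9 had an unadjusted p under 0.05 (4.09%, against 1.50% of all genes) and 3 had groups without overlap (1.36%, against 2.01%). The 9 were Flt4, Angpt2, Mgp, Angptl4, Fabp7, the globin genes Hbb-bs and Hbb-bt, the microglia gene P2ry12 and the pigment epithelium gene Rgr, and the 3 were Angpt2, Fabp7 and P2ry12.

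Markers of other cells in or near vessels were given for the same libraries. Of 13 pericyte and smooth muscle genes 0 passed, with a median of 0.02, and Tagln and Cnn1 had too few counts. The list summed to 815 to 1235 CPM in sIVs and 739 to 878 CPM in PBS retinas. Most of this sum was the single gene Vtn, at 612 to 1068 CPM in sIVs and 538 to 707 CPM in PBS retinas. Vtn was highest in sIVs replicate 4, so the sums do not describe the list as a whole. The pericyte receptor gene Pdgfrb averaged 24.2 ± 3.10 CPM in sIVs and 28.9 ± 2.16 CPM in PBS (SD, n = 4 each; log2 fold change -0.26 ± 0.13 SE, edgeR adjusted p = 0.81), and the channel subunit gene Abcc9 had -0.37 ± 0.21 (SE), with -0.24 without sIVs replicate 4. Of 4 erythrocyte markers 0 passed, with a median of 1.22 (0.66 without sIVs replicate 4), and the list summed to 9.37 to 26.7 CPM in sIVs and 5.24 to 9.14 CPM in PBS retinas. The globin gene Hbb-bs stood at 7.31, 2.34, 11.2 and 2.96 CPM in sIVs and at 3.10, 1.91, 2.82 and 1.14 CPM in PBS replicates 1, 3, 4 and 5, with overlap (log2 fold change 1.41 ± 0.53 SE, edgeR adjusted p = 0.81; 0.91 without sIVs replicate 4). Platelet markers, another possible carrier of Vwf and Pecam1 transcripts, summed to 2.70 to 4.13 CPM in sIVs and 2.71 to 3.63 CPM in PBS retinas. Of 6 platelet genes only Itga2b could be tested (log2 fold change 0.22 ± 0.23 SE), and Ppbp had no count in any library.

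The remaining marker lists gave 0 passes as well. Müller glia and astrocyte markers summed to 3161 to 3645 CPM in sIVs and 3336 to 3543 CPM in PBS retinas, and rod markers to 34662 to 57439 and 29727 to 56347 CPM in sIVs and PBS. Lymphatic markers, of which Ccl21a had too few counts and Reln is also made by retinal neurons, summed to 289 to 363 CPM in sIVs and 287 to 458 CPM in PBS retinas. A large part of these sums was Reln, at 138 to 237 CPM in sIVs and 220 to 299 CPM in PBS retinas. Fibroblast markers summed to 29.8 to 72.6 CPM in sIVs and 24.7 to 66.6 CPM in PBS retinas, where Dcn and Lum had too few counts. Their medians were 0.01, 0.13, -0.18 and 0.15 in that order, and single libraries moved several of them. Without sIVs replicate 4 they were -0.12, 0.11, -0.14 and 0.25, and without PBS replicate 1 they were -0.19, 0.31, -0.29 and -0.03. Microglia markers had a median of 0.55 over 10 genes, with 0.27 without sIVs replicate 4 and 0.29 without PBS replicate 1. Leukocyte markers had 0.24 over 3 genes, with -0.09 without PBS replicate 1. Pigment epithelium markers had 1.39 over 8 genes, with 0.11 without sIVs replicate 4.

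The medians of the vascular lists also moved with single libraries. Without sIVs replicate 4 they were -0.04 for caveolae and fenestrae, 0.03 for Norrin and Wnt genes and -0.04 for VEGF genes. They were -0.04 for genes of the hypoxia response and -0.04 for genes around the angiopoietin receptors. They were likewise -0.06 for Notch and tip cell genes, 0.06 for genes of arteries and veins, 0.06 for haemostasis, 0.05 for activated endothelium, 0.11 for lipid transport and -0.09 for pericytes. Without PBS replicate 1 the further endothelial genes had 0.08, haemostasis 0.06, activated endothelium -0.02, barrier transporters -0.03 and pericytes -0.14.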

How the data were processed

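RNA sequencing of 8 mouse retina libraries was used, poly(A) selected with a protocol that marks strand and read as 150 bp pairs, per the labels. The authors deposited whole-number counts per Ensembl gene with position, length and biotype, and FPKM values for the same 54532 genes. Per library the deposited FPKM equalled the counts over listed gene length and library total, times a constant of 0.943 to 1.03. The listed lengths equalled the union of GENCODE M21 exons for all 10 genes. Coordinates are in mm10, as named in the submitters' processing notes. Aligner, counter and strand setting: not given in the sources used here. Union lengths understate the FPKM of genes whose main transcript is much shorter.

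Groups and replicate numbers came from the titles. Genes were kept by filterByExpr (17004 of 54532), scaled by TMM and compared in edgeR 4.0.16 under R 4.3.3 by its two-sided quasi-likelihood method, with Benjamini-Hochberg adjustment at 0.05. Standard errors are the absolute log2 fold change over the square root of F, and 95% intervals use these and the t distribution of the test. CPM are counts over the scaled library size. Correlations used log2 CPM (prior count 2) and exact permutation over all orders (scipy 1.17.1), which is not exact for deviations from the group means. Alternatives used DESeq2 1.42.0, limma 3.58.1 on voom weights and on log2(FPKM + 1) and log2(FPKM + 0.1), other scalings and filters, a replicate block, and libraries left out.

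Named genes were the 10 genes, the 2 of smallest p in each of 23 lists and the 8 of highest r with the mean of the 10. Genes and lists were chosen with earlier results of these data known. Libraries of a group were compared for duplicates; chi-square over degrees of freedom was at least 6.17.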

Additional observations from a re-analysis of the deposited data

Results flagged for a closer look

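Among the 20 combinations of gene and group, 2 held a library whose gap to the nearest of the other 3 exceeded the 95% critical value of Dixon's test for 4 samples. About 1 in 20 such groups is expected by chance. Flt1 stood at 145 CPM in PBS replicate 5, against 112 to 117 CPM in the other PBS libraries. Slco1a4 stood at 23.7 CPM in sIVs replicate 5, against 20.3 to 20.8 CPM in the other sIVs libraries.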

How the results depend on the processing

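Under 19 alternatives, 0 genes and 0 of the 10 genes passed in each; genes at an unadjusted p under 0.05 numbered 136 to 958, against 255 in the reported fit. Cldn5, Pecam1, Kdr, Flt1, Tek and Slco1a4 kept their direction in all 19. Cldn5 ranged from 0.11 to 0.72 and Kdr from -0.49 to -0.19. The median of the 10 genes was 0.07 as reported and ran from -0.07 without PBS replicate 1 to 0.11 without PBS replicate 5 when single libraries were left out, and was -0.10 without both PBS replicate 1 and sIVs replicate 4. Directions turned for 4 genes, at unadjusted p of at least 0.199. Mfsd2a was -0.18 without sIVs replicate 4 (-0.18 to 0.30 over single libraries left out), -0.30 without both PBS replicate 1 and sIVs replicate 4 and -0.21 with limma-voom quality weights. Vwf was -0.15 without sIVs replicate 5 and -0.21 without PBS replicate 1 (-0.21 to 0.31), -0.093 without both PBS replicate 1 and sIVs replicate 4 and -0.014 with quality weights. Cdh5 was -0.057 and -0.038 without sIVs replicate 5 and PBS replicate 1 (-0.057 to 0.16), -0.011 without both PBS replicate 1 and sIVs replicate 4 and -0.031 with quality weights. Tie1 was 0.039, 0.024 and 0.10 without sIVs replicate 1, PBS replicate 4 and PBS replicate 5 (-0.12 to 0.10). Where libraries were left out, fewer samples remained; otherwise the cause was not tested. Of the 45 pairs, 1 had an adjusted p under 0.05 on deviations from the group means, where the permutation p is not exact. On log2 CPM, on ranks and with any library left out, 0 passed. Deviations from the group means correlated at 0.60, 0.02, 0.23 and 0.51 between libraries numbered 1, 3, 4 and 5, and at -0.51 to 0.26 between differently numbered ones. Pairing was taken only where all 4 exceeded 0.1, and the labels name no shared animal or batch, so the fit has no block. Replicates 1, 4 and 5 correlated best with their own number. With a replicate block 0 genes passed (588 unadjusted), and Cldn5 had a log2 fold change of 0.48 (unadjusted p = 0.0153, edgeR adjusted p = 0.655), being higher in sIVs for all 4 numbers. The settings of gene length and of the further endothelial genes without single libraries were chosen after seeing the data. Counts of 46 to 156 per library limit Mfsd2a, Tek, Cdh5 and Tie1.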
